A study of Mus musculus with 12 samples.

Results

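The 8 genes described here encode transcription factors that give the lining of the gut its identity. They are *Cdx1* and *Cdx2* of the caudal-type homeobox family, *Gata4*, *Gata5* and *Gata6* of the GATA zinc finger family, the nuclear receptor genes *Hnf4a* and *Hnf4g*, and *Onecut2* of the cut homeobox family. They were taken by name and not by a cutoff on a measured value, though earlier results of these data were known at the time. All 8 were found among the 14244 gene rows of the deposited table, and all 8 averaged 10 normalized counts or more over the libraries, as did the 12808 genes tested. A normalized count is the number of reads on a gene divided by the size factor of its library.

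RNA was sequenced from gut epithelial cells of 5 WT mice and 7 Chd8L+/- mice, with 1 library per mouse. Mice of both groups were C57BL/6 male littermates aged 8 weeks. Chd8L+/- mice carry a germline deletion in 1 copy of *Chd8* that removes exons of its large isoform in every tissue, and the WT littermates carry no deletion. The labels name the tissue only as gut, and the labels and methods do not say which segment each mouse gave.

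The CDX factors direct the embryonic endoderm towards an intestinal fate and keep adult epithelium intestinal rather than gastric. The HNF4 receptors drive the genes of the mature enterocyte, the absorptive cell of the villus, and share many binding sites with the GATA and CDX factors. GATA4 is present in the proximal small intestine, where it holds back ileal genes such as those of bile acid uptake, and is absent from the most distal ileum, while GATA6 is found along the whole gut.

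The libraries held 15691662 to 20761315 reads on genes. *Chd8*, the targeted gene, had 823 to 1050.2 normalized counts in WT and 1084 to 1483 in Chd8L+/- libraries (log2 fold change 0.44, limma adjusted p = 0.121). These are reads on the gene as a whole, in which the deleted exons could not be read separately. All 7 epithelial markers were in the table, with summed counts of 142072 to 242384 in WT and 140735 to 228390.0 in Chd8L+/- libraries. Of 10 stomach markers 2 were in the table (sums of 19.6 to 94.3 over all libraries), and 11 of 11 stromal markers were (sums of 62.2 to 491 in WT and 99.2 to 2543 in Chd8L+/- libraries). WT replicate 2 stood among the Chd8L+/- libraries on the first principal component (41.0, against -67.5 to -26.2 for the other 4 WT libraries and 0.26 to 42.7 for Chd8L+/-), and Chd8L+/- replicate 5 had the highest stromal sum. In bulk samples such as these, fewer cells of a type and less RNA per cell cannot be told apart.

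Promoter sequence is shown for the members whose levels moved most closely together or apart between libraries (*Hnf4a* with *Gata5*, *Cdx2* against *Onecut2*), as far as RefSeq gave it on GRCm38.p6, the build that mm10 names. *Hnf4a* has 2 annotated start sites, which gene-level counts cannot separate. The upstream site lies on the plus strand at chr2:163506607-163506812 (bases -250 to -45 from the start), and the downstream site on the plus strand at chr2:163546938-163547154 (bases -217 to -1). The *Gata5* window is on the minus strand at chr2:180334695-180334929 (bases -250 to -16), and the *Cdx2* window is on the minus strand at chr5:147307266-147307499 (bases -250 to -17). Capitals mark matches to the short cores given after the sequences.
Hnf4a upstream start: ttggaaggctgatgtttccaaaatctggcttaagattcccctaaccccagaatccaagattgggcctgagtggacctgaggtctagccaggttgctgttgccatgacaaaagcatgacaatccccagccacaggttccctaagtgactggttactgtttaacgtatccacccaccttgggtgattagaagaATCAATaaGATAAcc
Hnf4a downstream start: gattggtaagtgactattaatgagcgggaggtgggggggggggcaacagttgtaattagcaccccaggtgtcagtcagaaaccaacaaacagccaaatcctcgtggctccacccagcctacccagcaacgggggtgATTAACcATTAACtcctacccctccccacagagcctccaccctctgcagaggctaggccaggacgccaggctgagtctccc
Gata5: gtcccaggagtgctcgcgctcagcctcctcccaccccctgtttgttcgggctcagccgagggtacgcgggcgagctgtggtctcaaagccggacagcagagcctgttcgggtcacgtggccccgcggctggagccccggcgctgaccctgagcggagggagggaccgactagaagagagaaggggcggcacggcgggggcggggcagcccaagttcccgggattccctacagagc
Cdx2: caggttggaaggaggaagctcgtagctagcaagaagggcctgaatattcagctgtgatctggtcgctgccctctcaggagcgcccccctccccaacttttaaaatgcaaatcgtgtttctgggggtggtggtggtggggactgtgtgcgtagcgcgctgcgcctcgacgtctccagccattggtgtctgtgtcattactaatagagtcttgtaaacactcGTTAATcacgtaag

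On both strands, 5 cores were searched, with no overlap between the matches found. The ONECUT core ATCAAT stood at -59 to -54 of the upstream *Hnf4a* start and is held by 6.72% of 32851 RefSeq promoter windows of 250 bases. The GATA core GATAA stood beside it at -51 to -47, and 22.6% of windows hold it. The core of a site for HNF1, another homeodomain factor of gut and liver (GTTAAT, or ATTAAC on the other strand, in 6.43% of windows), stood at -81 to -76 and at -74 to -69 of the downstream *Hnf4a* start. The same core stood at -30 to -25 of *Cdx2*. The *Gata5* window, with 70.2% G and C, held none of the 5. The CDX core TTTATG (10.8% of windows) and the HNF4 site CAAAGTCCA (0.384%) were in none of the 4 windows. A match is a run of letters only and says nothing of binding.

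The nuclear receptor genes were the most abundant members. Per kilobase of exon, *Hnf4a* had 3031 ± 647 normalized counts (SD, n = 12 libraries), followed by *Hnf4g* with 2377 ± 523. *Cdx2* came next at 1565 ± 234 and then *Cdx1* at 1271 ± 259. The GATA genes stood lower per kilobase, with *Gata4* at 477 ± 99.1, *Gata5* at 392 ± 116 and *Gata6* at 255 ± 54.1. The length used takes in every annotated exon, and the order of the GATA genes depends on it. Without division by length, *Gata6* had a mean of 1658 normalized counts and *Gata5* 1286. *Onecut2* was lowest at 62.6 ± 32.9 per kilobase. Only the steps from *Cdx1* to *Gata4* and from *Gata6* to *Onecut2* separated neighbours whose ranges over the 12 libraries did not overlap. Within a library, *Hnf4a* was above *Hnf4g* in 10 of 12, *Cdx2* was above *Cdx1* in 11 of 12, and *Gata4* was above *Gata5* in 8 of 12. Between 497 reads (*Onecut2*) and 23835 reads (*Hnf4a*) stood behind each value, so counting error was small beside the spread between mice.

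**Figure D1:**
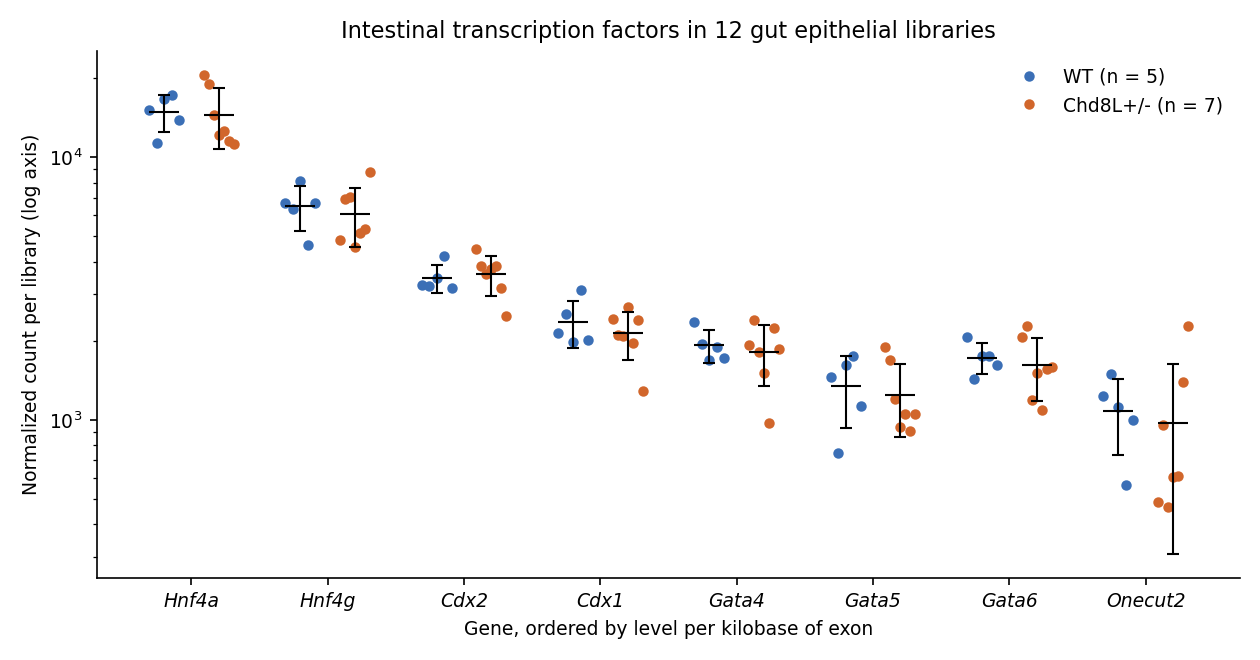
Normalized count of each member (log axis) in every library, as 1 point per mouse, with WT in blue (n = 5) and Chd8L+/- in orange (n = 7). Black bars show the mean ± SD. Genes are ordered by level per kilobase of exon, and the groups overlap for all 8.

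*Hnf4a* encodes the receptor that holds together the enterocyte program, and it lies on the plus strand of chromosome 2 of GRCm38 (163506808 to 163572910), where the antisense gene *Hnf4aos* and the small RNA gene *Gm25881* overlap it. Its normalized counts were 15173, 11358, 16597, 17213 and 13840.5 in WT replicates 1 to 5. In Chd8L+/- libraries the lowest was 11182, the median 12586 and the highest 20585. The highest values came from Chd8L+/- replicates 1 and 2, while the other 5 Chd8L+/- libraries lay at or under 14445, inside the WT range or just below it. The means were 14836 ± 2342 (SD, n = 5) and 14486 ± 3768 (SD, n = 7).

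*Hnf4g*, the paralog found mainly in intestine, lies on the plus strand of chromosome 3 (3508030 to 3658052) and overlaps the small RNA gene *Gm23237* and the pseudogene *Gm37000*. Its counts were 6684, 6333, 8131, 4619.7 and 6688 in WT replicates 1 to 5. In Chd8L+/- libraries they ran from 4556 through a median of 5345 to 8744. The top value belonged to Chd8L+/- replicate 7, the library with the lowest *Hnf4a*. The log2 ratio of *Hnf4g* to *Hnf4a*, which does not depend on how a library is scaled, was -1.20 ± 0.41 in WT and -1.25 ± 0.52 in Chd8L+/- (difference -0.05, two-sided exact permutation test, p = 0.872, and 0.956 adjusted over the 4 ratios examined).

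*Cdx2*, the factor needed for intestinal fate, lies on the minus strand of chromosome 5 (147300805 to 147307270). It had 3258, 3219, 3477, 4197 and 3172 normalized counts in WT replicates 1 to 5. The Chd8L+/- libraries ran from 2488 through a median of 3748 to 4466. It was the steadiest member: its coefficient of variation over the 12 libraries was 15.0%, lower than that of all but 16.7% of the genes tested. The lowest value was that of Chd8L+/- replicate 7.

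*Cdx1*, which is expressed mainly in crypts and responds to Wnt signaling, lies on chromosome 18. Its counts were 2137, 2526, 1976, 3120.1 and 2009 in WT replicates 1 to 5. In Chd8L+/- libraries they ran from 1290.1 through a median of 2101 to 2677. Chd8L+/- replicate 7 was again the lowest and stood apart from the other 6, which began at 1960.3. The log2 ratio of *Cdx1* to *Cdx2* was -0.57 ± 0.19 in WT and -0.76 ± 0.23 in Chd8L+/- libraries (difference -0.19, two-sided exact permutation test, p = 0.150, and 0.601 adjusted over the 4 ratios).

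*Gata4*, the factor of the proximal small intestine, lies on the minus strand of chromosome 14 (63198922 to 63271692). It had 2359.9, 1939, 1686, 1897 and 1722 normalized counts in WT replicates 1 to 5. In Chd8L+/- libraries it ran from 976 through a median of 1865 to 2397. A single library, Chd8L+/- replicate 5, stood far below the rest, and the next lowest was 1506 in Chd8L+/- replicate 4.

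*Gata5* lies on the minus strand of chromosome 2 (180325133 to 180334699) and overlaps the antisense gene *Gata5os*. Without stranded counting, reads of such pairs cannot be told apart, and the use of strand is not given in the sources used here. Its counts were 1454, 747, 1622, 1747 and 1125 in WT replicates 1 to 5. The Chd8L+/- libraries ran from 906 through a median of 1056 to 1897, so the lowest value of all was a WT one, in replicate 2. *Gata6*, the family member found along the whole gut, lies on chromosome 18 and overlaps *1010001N08Rik* on the other strand. It had 2065, 1430.7, 1746, 1745 and 1623 counts in WT replicates 1 to 5, and 1089.6, 1559 and 2274 as the lowest, median and highest values in Chd8L+/-. Against *Gata4*, neither relative shifted between genotypes beyond the spread of the libraries: the log2 ratio of *Gata5* to *Gata4* differed by 0.03 (two-sided exact permutation test, p = 0.908) and that of *Gata6* to *Gata4* by -0.01 (p = 0.956, exact).

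*Onecut2*, a factor best known from liver and pancreas development that is also expressed in intestine, lies on chromosome 18. Its counts were 1237, 1497, 1114, 562 and 997 in WT replicates 1 to 5. In Chd8L+/- libraries they ran from 464 through a median of 609.8 to 2272. This was the most variable member. The highest library had 4.90 times the lowest, and its coefficient of variation of 52.5% was above that of 88.4% of the genes tested, where *Gata5*, next among the members, had 29.5%. The high values came from Chd8L+/- replicates 7 and 6 and WT replicate 2, and the low ones from Chd8L+/- replicates 3 and 1 and WT replicate 4.

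The question of whether the Chd8L+/- epithelium differed in these factors was put to limma, fitted on log2(normalized count + 1) to all 12808 genes. None of the 8 members differed between genotypes at an adjusted p of 0.05, a threshold that 0.0234% of the genes tested passed, and 0 of 8 reached an unadjusted p of 0.05, against 24.3% of the genes tested. DESeq2 and edgeR on the recovered reads also called 0 of 8, with 0 of 8 reaching an unadjusted p of 0.05. Over all genes, DESeq2 called 811 of 14244 and edgeR 5 of 12808, while 3392 and 2865 reached an unadjusted p of 0.05. In all 8 the groups overlapped, where they did not in 0.515% of the genes tested. The log2 fold change (Chd8L+/- minus WT) was negative in 7 of 8, against 48.6% of the genes tested, with a median of -0.11 beside 0.01 over all genes. The members were correlated with each other, so these signs are not independent, and each value was smaller than its standard error.

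The log2 fold changes had these sizes and 95% intervals. *Cdx2* was at 0.04 (-0.28 to 0.36) and *Cdx1* at -0.15 (-0.54 to 0.24), or -0.04 without Chd8L+/- replicate 7 and -0.05 without WT replicate 4. *Hnf4a* was at -0.06 (-0.49 to 0.38) and *Hnf4g* at -0.11 (-0.52 to 0.31), and the sign of both turned with quantile normalization, to 0.26 and 0.13. Among the GATA genes *Gata4* was at -0.12 (-0.55 to 0.31), *Gata6* at -0.13 (-0.52 to 0.26) and *Gata5* at -0.09 (-0.62 to 0.43), the last turning to 0.01 with quantile normalization. *Onecut2* had the widest interval, -0.32 (-1.16 to 0.51), and its value moved most with the processing. It was -0.15 with edgeR and -0.76 with a block for the initial letter of each library's name. With 1 library left out it was -0.57 (without Chd8L+/- replicate 7), -0.54 (WT replicate 4), -0.20 (Chd8L+/- replicate 1) and -0.19 (WT replicate 2 or Chd8L+/- replicate 3). Its adjusted p was 0.129 to 0.828 over the alternatives, and it reached an unadjusted p of 0.05 with that letter block and with the replicate number as a block. Chd8L+/- replicate 7 is the only library with its letter, so it adds nothing to the difference under the letter block. No WT library has replicate number 6 or 7, so Chd8L+/- replicates 6 and 7 add nothing under the replicate block. Their counts, 1394 and 2272, were the highest in Chd8L+/- libraries. The adjusted p-values of the 8 members from limma lay between 0.611 and 0.885, and two-sided exact permutation tests of each member gave p = 0.465 to 0.792. The intervals leave room for changes of this size in either direction, so equal levels were not shown. Leaving out WT replicate 2 moved *Gata5* to -0.29 and *Hnf4a* to -0.15, with limma adjusted p-values of 0.327 and 0.596.

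**Figure D2:**
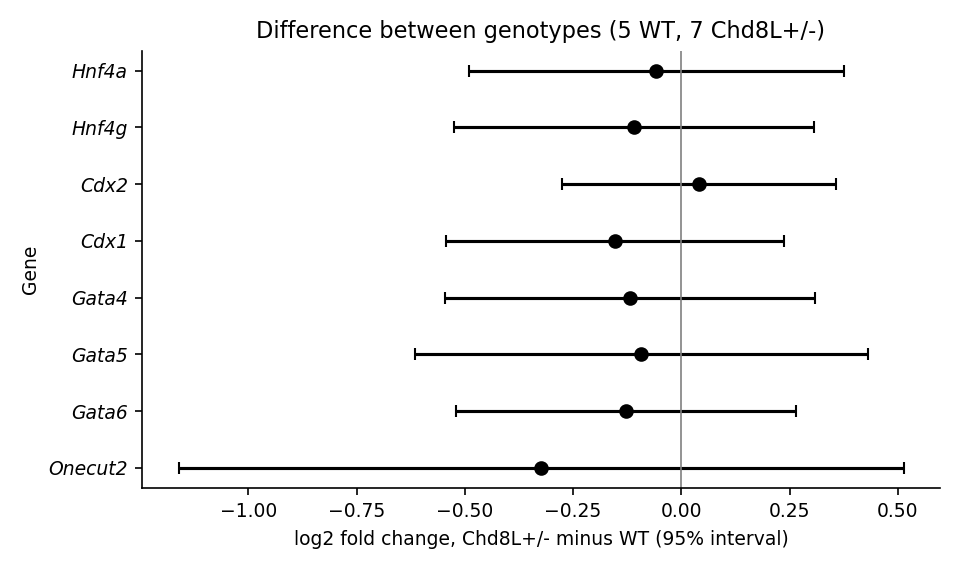
Log2 fold change of each member, Chd8L+/- minus WT, from limma (n = 5 and 7 mice). Points are estimates and bars the 95% intervals. Every interval includes 0, and that of *Onecut2* is the widest.

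To ask how the members followed the segment of gut that each library represents, a proximal-distal index was formed for each library as the mean log2(value + 1) of 21 genes of the proximal small intestine minus that of 11 genes of the distal small intestine, none of them a member. The index was 1.69, 1.86, 0.27, -0.11 and 0.80 in WT replicates 1 to 5. In Chd8L+/- it ran from -1.10 (replicate 5) to 3.28 (replicate 6). The libraries thus spanned 4.39 log2 units in this index, while the genotypes differed by -0.08 (0.90 ± 0.86 in WT and 0.83 ± 1.47 in Chd8L+/-, two-sided exact permutation test, p = 0.932). Both lists leaned lower in Chd8L+/-, with median log2 fold changes of -0.49 (proximal, 14 of 21 negative) and -0.36 (distal, 8 of 11 negative). None passed an adjusted p of 0.05 in limma. By the unadjusted p, 7 proximal and 0 distal genes were lower and 0 were higher, where 24.3% of all genes tested reached it in either direction. Between libraries, single distal genes differed by more than the index. *Fabp6*, the bile acid binding protein of the ileum, had 22957 normalized counts in Chd8L+/- replicate 5 and 42.8 in Chd8L+/- replicate 6. *Slc10a2*, the ileal bile acid importer, had 2464 and 8.19 in the same libraries. *Slc10a2* was named after its values were seen.

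None of the 8 members followed the index at an adjusted p of 0.05 (limma over all genes), a threshold passed by 0.359% of the genes tested, and 2 of 8 reached an unadjusted p of 0.05, against 10.9% of the genes tested. Those were *Onecut2*, at 0.40 log2 units per unit of index (standard error 0.13, limma adjusted p = 0.267), and *Gata4*, at 0.16 (standard error 0.07, limma adjusted p = 0.428). Both slopes were positive, that is, towards the libraries with a higher index. *Gata5* (-0.19, or -0.29 without Chd8L+/- replicate 5), *Hnf4a* (-0.13) and *Cdx2* (-0.10) had negative slopes, with limma adjusted p-values of 0.465 to 0.578. *Gata6* (0.06), *Hnf4g* (0.02) and *Cdx1* (0.01) had slopes below their standard errors. With the index added to the model, the log2 fold changes between genotypes lay between -0.29 (*Onecut2*) and 0.03 (*Cdx2*).

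The slope of *Gata4* rested on 1 library. Without Chd8L+/- replicate 5 it was 0.06 (limma adjusted p = 0.648), while that of *Onecut2* stayed between 0.36 and 0.49 with any single library left out. Chd8L+/- replicate 5 joined the lowest *Gata4* (976) to the highest *Fabp6*, *Slc10a2* and stromal sum and to a *Pdx1* count of 7.33. *Pdx1*, the homeobox gene of the duodenum, was highest in Chd8L+/- replicate 4 (288) and WT replicate 1 (238), whose *Gata4* counts were the second lowest and the second highest of the 12, and it was also named after its values were seen. Chd8L+/- replicate 4 had in addition the highest summed colon markers (27077, against 4812 to 11399 in the other 11 libraries). Of that sum, 19138 counts were those of 1 gene, *Car1*, a carbonic anhydrase of the colon. The part of stroma and colon in these values was not tested.

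**Figure D3:**
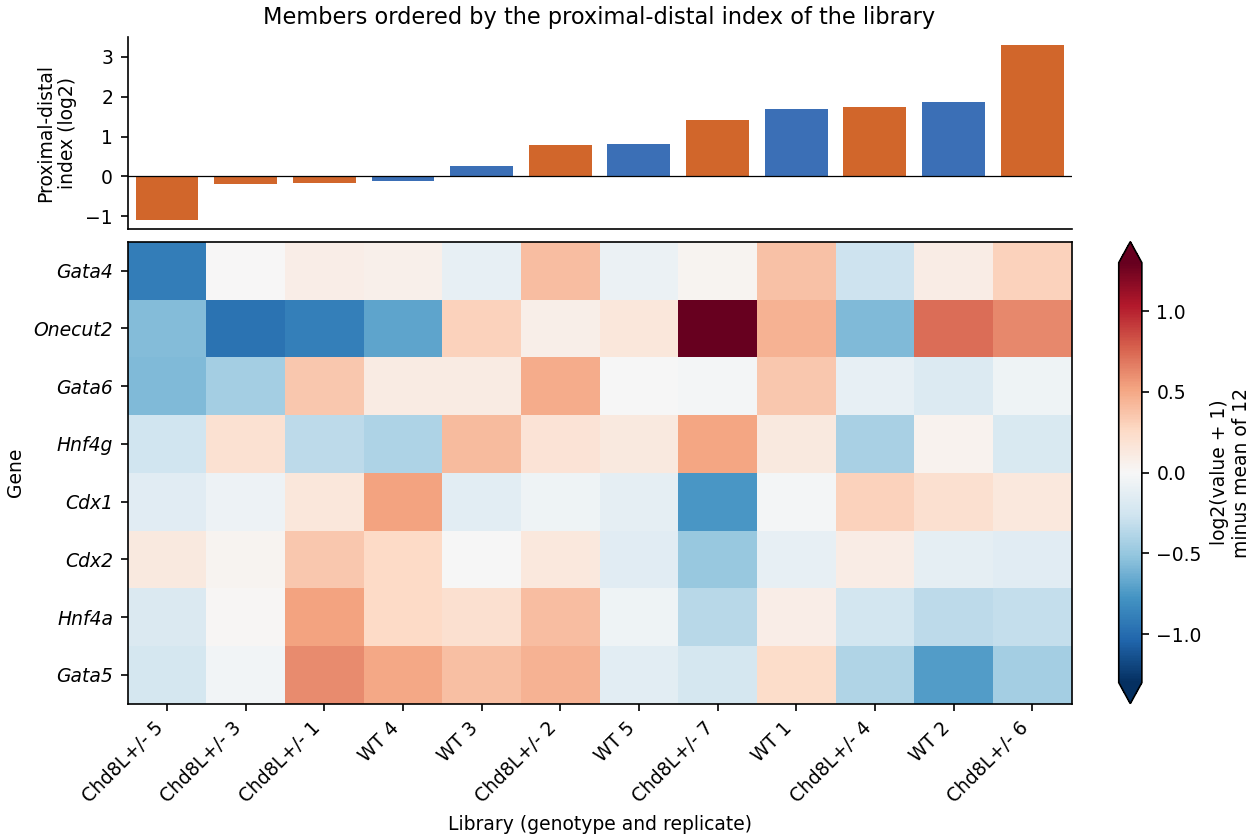
Proximal-distal index of each library as bars (log2 units, WT blue, Chd8L+/- orange), ordered from -1.10 to 3.28, above a heat map of log2(value + 1) of each member minus its mean over the 12 libraries. *Onecut2* is low in the 4 libraries at the left (low index) end and also in Chd8L+/- replicate 4, towards the right (index 1.73). *Gata4* is low in the leftmost library, Chd8L+/- replicate 5. *Gata5* and *Hnf4a* are mostly low at the right (high index) end.

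**Figure D4:**
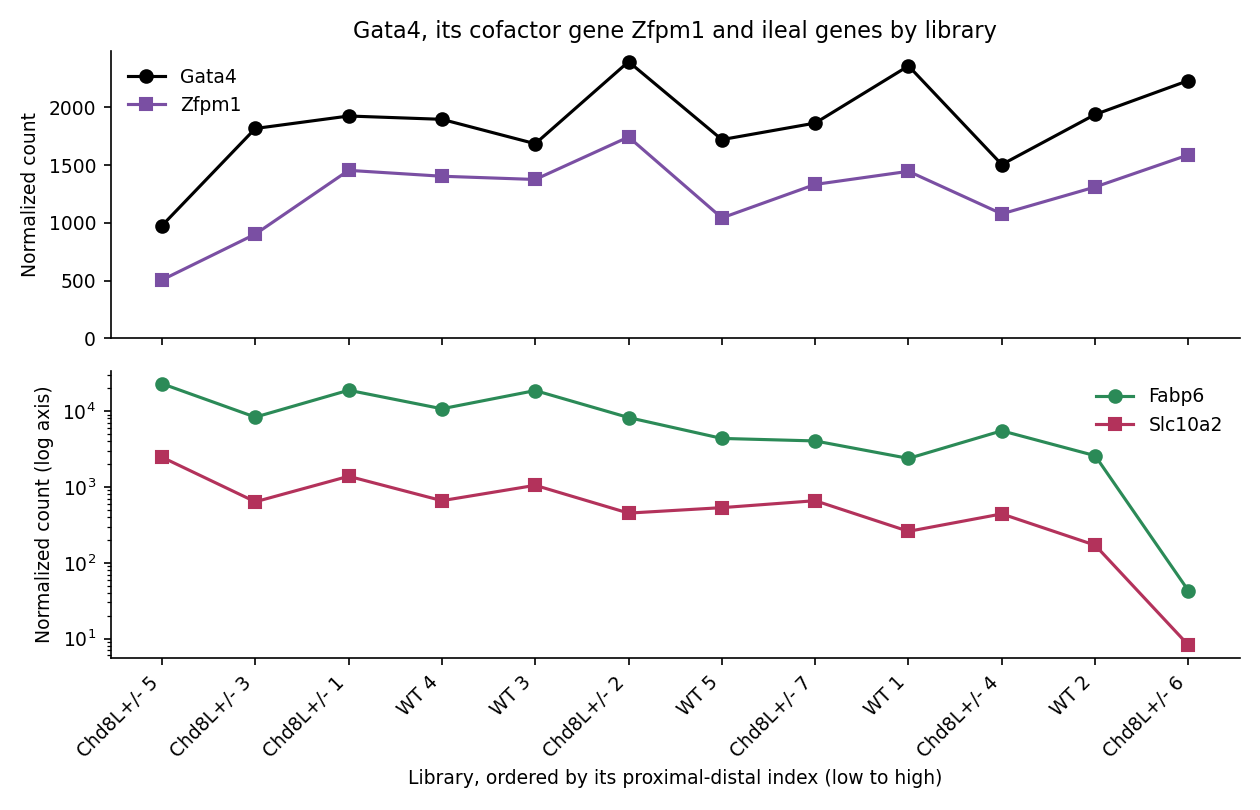
Normalized counts of *Gata4* and its cofactor gene *Zfpm1* (upper panel, linear axis) and of the ileal genes *Fabp6* and *Slc10a2* (lower panel, log axis) in the 12 libraries, ordered by proximal-distal index from low to high. *Gata4* and *Zfpm1* share their lowest library, Chd8L+/- replicate 5, where both ileal genes are highest, and the ileal genes are lowest in Chd8L+/- replicate 6.

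Along the other axis of the epithelium, from crypt to villus, an enterocyte-proliferation index was formed in the same way from 16 enterocyte genes and 22 proliferation genes. It was 6.52, 4.57, 7.98, 7.66 and 6.85 in WT replicates 1 to 5 and ran from 4.13 to 6.20 in Chd8L+/- libraries, all 7 of which lay below the WT median. The difference was -1.25 (6.72 ± 1.34 and 5.46 ± 0.79, two-sided exact permutation test, p = 0.0707). With 1 library left out it ran from -1.79 to -0.94, with exact permutation p from 0.00606 (without WT replicate 2, at -1.79) to 0.170. Of the 8 members, 1 followed this index at an adjusted p of 0.05 in limma, where 40.2% of the genes tested did, and 2 reached an unadjusted p of 0.05, against 48.5%. The 1 member past the adjusted threshold was *Gata5*, which rose by 0.27 log2 units per unit of index (standard error 0.07, limma adjusted p = 0.00762, and 0.0040 to 0.0283 over the alternatives).

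*Hnf4a* had a slope of 0.15 on the enterocyte-proliferation index (limma adjusted p = 0.0806), which turned to -0.08 with quantile normalization. *Gata6* had 0.12 (limma adjusted p = 0.175). The slopes of *Hnf4g* (0.06), *Cdx2* (0.03), *Gata4* (0.0034), *Cdx1* (-0.02) and *Onecut2* (-0.04) were smaller than their standard errors. With this index in the model the genotype difference of *Gata5* was 0.35 and that of *Hnf4a* 0.19, neither past the threshold (limma adjusted p = 0.605 and 0.760).

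The members moved together in pairs, described here by Pearson's r of log2(value + 1) over the 12 libraries, which share their scaling and their make-up of cells and segments. The closest of the 28 pairs was *Gata5* with *Hnf4a* (r = 0.946, Spearman's rho = 0.951). It was as close without the 2 libraries farthest from the median (0.946), within genotypes (0.946), and after trends on GC content and gene length were taken out (0.924). Under quantile normalization it fell to 0.372. *Gata4* and *Gata6* had r = 0.722, falling to 0.357 without 2 libraries, and *Cdx1* and *Cdx2* had r = 0.693, falling to 0.085. The paralogs *Hnf4a* and *Hnf4g* did not move together (r = -0.109).

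The most opposed pair was *Cdx2* and *Onecut2* (r = -0.869, rho = -0.811). Its r was -0.758 without 2 libraries, -0.875 within genotypes and -0.658 under quantile normalization. *Cdx1* and *Hnf4g* were the next most opposed (r = -0.780, rho = -0.748, and -0.630 without 2 libraries). The pairs differ in base composition: the transcripts of *Hnf4g* and *Onecut2* have 42.4% and 42.6% G and C, near the low end of the genes tested, and those of *Cdx1* and *Cdx2* have 62.1% and 57.5%, near the high end. With trends on GC content and length removed, r was -0.760 for *Cdx2* and *Onecut2* and -0.532 for *Cdx1* and *Hnf4g*.

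**Figure D5:**
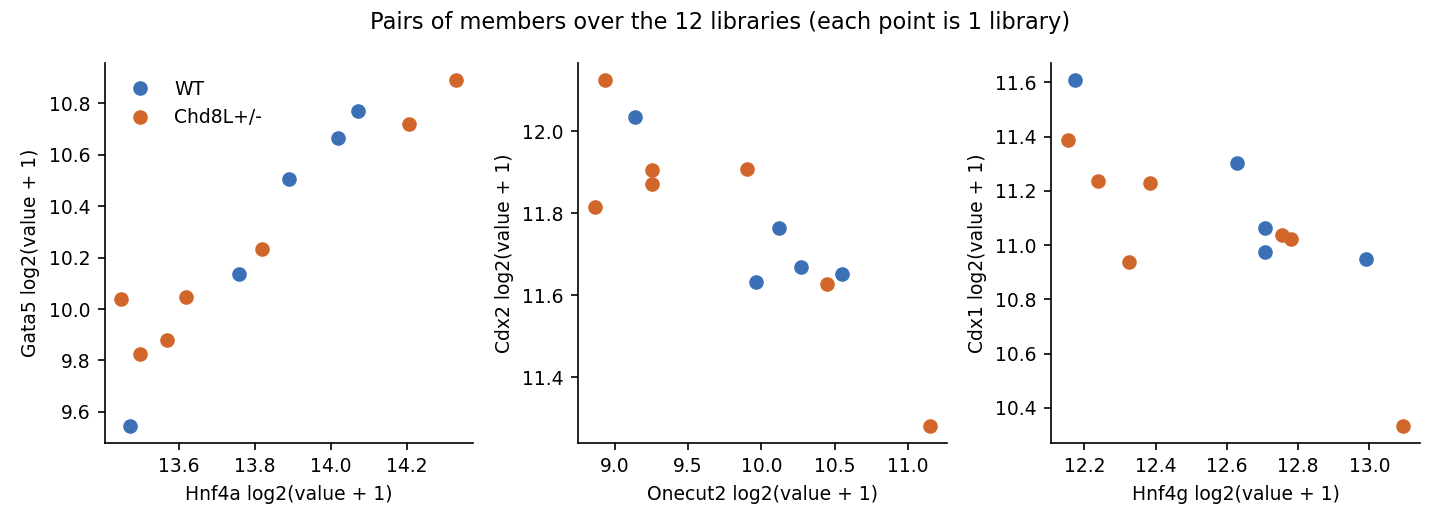
Log2(value + 1) of *Gata5* against *Hnf4a*, *Cdx2* against *Onecut2* and *Cdx1* against *Hnf4g*, 1 point per library (WT blue, n = 5, and Chd8L+/- orange, n = 7). *Gata5* rises with *Hnf4a* (r = 0.946), and the other pairs run in opposite directions (r = -0.869 and -0.780), with Chd8L+/- replicate 7 at the lower right of both.

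Among all genes with a mean of at least 10, those whose pattern over the 12 libraries was most like that of a member were named by the highest r. For *Gata4* they included *Zfpm1* (r = 0.907), which encodes the GATA cofactor FOG1, after *Zgpat* (0.917) and before *Kmt5a* (0.890). *Zfpm1* had 506 normalized counts in Chd8L+/- replicate 5, its lowest library, and 903 to 1744 in the other 11. For *Gata5* they were *Flii*, *Icmt* and *Ppp4r1* (r = 0.961 to 0.974), and for *Hnf4a* *Cyfip1*, *Cttn* and *Fblim1* (0.961 to 0.973). For *Gata6* they were *Cdr2*, *Sec22c* and *Tbc1d1* (0.922 to 0.963).

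For *Cdx1* the most alike was *Ehf* (r = 0.929), an epithelial ETS factor, before *Card10* (0.926) and *Fam174b* (0.923). For *Cdx2* they were *Dnajb11*, *Megf9* and *Top1* (0.858 to 0.893). *Onecut2* was followed by *Rhobtb3* (0.944), *1010001N08Rik* (0.908) and *Chpt1* (0.895). The second of these overlaps *Gata6* on the opposite strand, yet *Gata6* and *Onecut2* had r = 0.180. For *Hnf4g* the nearest were *S1pr3* (0.911), *Cd200r1* (0.880) and *Dnaaf1* (0.867), of which *S1pr3* had only 12.5 normalized counts in WT.

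Other transcription factors of the intestinal epithelium were read from a list of 29, of which 23 could be tested. None passed an adjusted p of 0.05 in limma, with 4 higher and 3 lower in Chd8L+/- reaching an unadjusted p of 0.05, where 24.3% of all genes tested did, and their median log2 fold change was -0.04. The most abundant were *Maf* (10638 ± 2020 in WT and 8314 ± 2236 in Chd8L+/- libraries), *Klf4*, a factor of goblet and other differentiated cells (10211 ± 3579 and 7503 ± 2116), and *Creb3l3*, a regulator of lipid genes (8706 ± 2360 and 5702 ± 2385, limma adjusted p = 0.192). *Vdr*, the vitamin D receptor, had 5526 ± 588 and 5359 ± 236. Of 39 *Hox* genes, which record position along the gut, 15 could be tested. Of these, 13 had a positive log2 fold change, against 51.4% of all genes tested, with a median of 0.50. In limma, 0 of the 15 passed an adjusted or unadjusted p of 0.05, against 0.0234% and 24.3% of all genes tested. Summed counts of the *Hox* genes were 164 to 958 in WT and 340 to 2649 in Chd8L+/- libraries. The highest sum was in Chd8L+/- replicate 4, the library with the highest colon sum, and the next in Chd8L+/- replicate 5 (1384). These 2 libraries also had the highest stromal sums (989 in replicate 4 and 2543 in replicate 5). The part of colon and stroma in the *Hox* sums was not tested.

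Among 18 genes known as HNF4 targets, 0 passed an adjusted p of 0.05 for genotype in limma, and 1 was higher and 2 were lower in Chd8L+/- with an unadjusted p within 0.05, against 24.3% of all genes tested in either direction. Their median log2 fold change was -0.25, with 16 of 18 negative, against 48.6% of all genes tested. This count is not separate from the enterocyte list, which shares 9 of the 18 and had 15 of 16 genes negative. The most abundant of the 18 were *Apoa1* (171589 ± 66819 in WT and 109012 ± 37980.3 in Chd8L+/-, limma adjusted p = 0.377) and *Anpep*, a brush border peptidase (109456 ± 23660 and 115723 ± 53758). Of the 18, 9 are among the genes that form the enterocyte-proliferation index, so their relation to it is built in. Of the other 9, 5 rose with the index at an adjusted p of 0.05 and 0 fell, where 2563 of the 12808 genes tested rose and 2586 fell. Of 12 known CDX2 targets 11 could be tested. For genotype 0 passed the adjusted threshold in limma and 1 was higher and 0 lower by the unadjusted p (24.3% of all genes tested in either direction), with a median log2 fold change of -0.19. *Sis*, the gene of sucrase-isomaltase, had 52945 ± 11131 and 44011 ± 13946 normalized counts, and *Krt20*, a keratin of differentiated cells, had 48543 ± 14133 and 39187 ± 14397. Of the 11, 3 form part of the enterocyte-proliferation index. Of the other 8, 3 rose with it and 1 fell at an adjusted p of 0.05.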

How the data were processed

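Poly(A) libraries of gut epithelium, 1 from each of 5 WT and 7 Chd8L+/- littermates, were read as single ends of 75 bases. The authors used Tophat2 to place reads on mm10 and DESeq2 for the steps after counting, and the submitters' processing notes name mm10 and DESeq2. The deposited signal per gene and library is a read count that the authors divided by a size factor. The counting program, annotation and use of strand are not given in the sources used here. All deposited values (100%) came out as whole reads within 0.01 of a whole number after division by the value of 1 read, giving 15691662 to 20761315 reads per library. Of 14244 rows, 21 had names turned into dates and 4 repeated a name, and no such row is used by name. All 12 columns were matched to mice by library name.

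Genotypes were compared with limma 3.58.1 (R 4.3.3, with an intensity trend in the variance prior) on log2(value + 1), which understates the change of low genes, for the 12808 genes with a mean of at least 10, with Benjamini-Hochberg adjustment over all of them. The same fit with an index in place of genotype gave slopes. Single values were compared with two-sided exact permutation tests over all regroupings of the mice, whose smallest p is 0.00126. Alternatives were pseudocounts of 0.5 and 5, other filters, quantile normalization, DESeq2 1.42.0 or edgeR 4.0.16 fitted to the recovered reads, blocks for the replicate number and for the letter opening the library name, index covariates, indices scaled to unit SD, and each library left out. Removal of trends on GC content and length (natural splines, 4 df, for the 12629 genes, or 98.6%, with both values) was added after seeing the data. The steps were tested on simulated data.

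Named genes are the 8 members, the 3 genes most correlated with each, the 2 to 4 most abundant genes of each list described, list genes past the adjusted genotype threshold (there were 0) and *Chd8*. *Fabp6*, *Slc10a2*, *Pdx1* and *Car1* were singled out after their values were seen. The members and lists were chosen with earlier results of these data known. Positions and exon lengths are from GENCODE M21 on GRCm38, which need not be the annotation the authors used. Promoters are from RefSeq (GRCm38.p6), where 3 of the 8 members were matched outside chromosome 18. *Gata4* and *Hnf4g* were missing, and sequence and positions of chromosome 18 genes are not reported here.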

Additional observations from a re-analysis of the deposited data

Results flagged for a closer look

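Among 28 groups examined for a value standing apart (members, ratios and indices within each genotype), 1 was found, where chance gives about 1.4. It was *Cdx1* in Chd8L+/- replicate 7, whose log2(value + 1) of 10.33 lay below the other 6 Chd8L+/- libraries, which ran from 10.94 to 11.39. The same library had the lowest *Cdx2* and *Hnf4a* and the highest *Hnf4g* and *Onecut2* of the 12. Without it, the log2 fold change of *Cdx1* between genotypes was -0.04 (limma adjusted p = 0.889). The cause was not tested.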

How the results depend on the processing

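No member passed an adjusted p of 0.05 for genotype under any of the alternatives run. The number of genes past that threshold, 3 as reported, was 5 with edgeR and 811 with DESeq2 (231 higher and 580 lower) on recovered reads, and 451 with the library letter as a block (175 higher and 276 lower). With the replicate number as a replicate block it was 0 (2327 genes at an unadjusted limma p of 0.05), with the proximal-distal index in the model 0 (3470 genes) and with the enterocyte-proliferation index 0 (1046 genes). Deviations of same-numbered mice from their genotype means had correlations of -0.34 to 0.19. Other pairs of mice were not compared, so these values do not settle whether the numbers pair the samples. Leaving out 1 library gave 0 to 3534 genes, the latter without WT replicate 2 (1789 higher and 1745 lower) and 8 without Chd8L+/- replicate 6.

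Log2 fold changes between genotypes turned sign with quantile normalization for *Gata5* (0.013), *Hnf4a* (0.26) and *Hnf4g* (0.13), with the replicate block for *Gata5* (0.028) and *Hnf4a* (0.067), and with the enterocyte-proliferation index in the model for *Gata5* (0.35), *Gata6* (0.034) and *Hnf4a* (0.19). With 1 library left out they ran from -0.016 to 0.12 for *Cdx2*, -0.19 to 0.022 for *Gata4* and -0.29 to 0.019 for *Gata5*. *Onecut2* was at -0.77 with the replicate block (limma adjusted p = 0.224), to which Chd8L+/- replicates 6 and 7 add nothing for want of a WT partner. Slopes on the proximal-distal index turned for *Cdx1* with list genes scaled to unit SD (-0.0082), and with 1 library left out ran from -0.020 to 0.048 for *Cdx1*, -0.029 to 0.11 for *Gata6* and -0.015 to 0.093 for *Hnf4g*. The 46 genes following that index became 3 to 70 with 1 library left out. Slopes on the enterocyte-proliferation index turned with quantile normalization for *Cdx2* (-0.12), *Gata4* (-0.11), *Hnf4a* (-0.084) and *Hnf4g* (-0.13), with genotype in the model for *Gata4* (-0.035), and with length and GC trends removed for *Gata4* (-0.0038) and *Onecut2* (0.039). With 1 library left out they ran from -0.10 to 2.66e-05 for *Cdx1*, -0.021 to 0.056 for *Gata4* and -0.12 to 0.053 for *Onecut2*. Genotype differences with 1 library left out ran from -0.49 to 0.25 for the proximal-distal index, -1.79 to -0.94 for the enterocyte-proliferation index, -0.23 to 0.089 for the ratio *Hnf4g* to *Hnf4a*, -0.17 to 0.16 for *Gata5* to *Gata4* and -0.079 to 0.065 for *Gata6* to *Gata4*. The causes of these changes were not tested.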
